A study of Mus musculus with 6 samples.

Results

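The nuclear genes that encode the respiratory chain and ATP synthase were described in NIH3T3 cells, an immortalised line of mouse embryonic fibroblasts of wild-type genotype, given either IPRN or the vehicle DMSO. Members were the gene rows annotated as protein coding whose symbol starts with Ndufa, Ndufb, Ndufc, Ndufs or Ndufv, with Uqcr, with Cox and a digit from 4 to 8, or with Atp5, or is one of Sdha to Sdhd. This rule took 96 of 55401 genes. A further 16 rows matched the symbols but were not protein coding and were left out. Of the 96 genes, 37 encode subunits of complex I, 4 of complex II, 8 of complex III, 20 of complex IV and 18 of complex V. Another 8 (Ndufaf1 to Ndufaf8) encode complex I assembly factors, and Cox7a2l encodes a factor that joins complexes III and IV into supercomplexes. Ndufa4 and Ndufa4l2 were counted with complex IV, where the Ndufa4 protein is found despite its name.

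Angelicin, a furanocoumarin made by plants, is named in the title of the series. According to its design text, TGF-β and hydrogen peroxide were added to model the fibroblasts of tumours. The samples are labelled by treatment alone, without dose or time, and it is not stated if the vehicle group had both stimuli too. Each group held 3 libraries of polyadenylated RNA, with total counts from 60320282 to 78629444. The labels do not say whether these were separate cultures, so p-values measure the spread between these libraries only, which may be technical.

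Complexes I and II pass electrons from NADH and succinate to ubiquinone. Complex III passes them on to cytochrome c and complex IV to oxygen, and complexes I, III and IV move protons across the inner mitochondrial membrane. Complex V, the ATP synthase, uses that gradient to make ATP. Apart from the core subunits that the mitochondrial genome encodes, every subunit is made from a nuclear gene and imported, so nuclear and mitochondrial transcripts have to be supplied together. In many cells these nuclear genes are driven by the transcription factors NRF1, GABP (an ETS family factor), YY1 and the oestrogen-related receptors, with coactivators of the PGC-1 family. Several complex IV subunits exist in forms used by most tissues and in forms restricted to muscle, testis or low oxygen.

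The RNA of the respiratory chain was close to level between the treatments. Summed over the 96 genes, normalised counts, scaled to library size (CPM), were 9546, 10261 and 10304 in IPRN 1, 2 and 3, against 10226, 9996 and 10245 in DMSO 1, 2 and 3. The groups overlapped, and IPRN 1 was the lowest library. Of the 89 genes with enough counts to test, 1 rose under IPRN (Ndufb10, a complex I subunit), none fell and 88 did not pass, in edgeR's quasi-likelihood test with Benjamini-Hochberg adjustment over all 17159 genes tested. The share called among the members was 1.12%, against 5.47% of all genes tested, 2.46% for rises and 3.01% for falls. At an unadjusted p under 0.05 there were 11 members, 6 higher and 5 lower in IPRN (12.4%, against 22.0% of all genes). DESeq2, run on the same genes, called 4 members where it called 12.5% of all genes (6.32% higher and 6.17% lower in IPRN). These were Ndufb10 and Ndufa12, higher in IPRN, and Uqcrc2 and Ndufaf4, lower.

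A call that was missed does not show that a gene stayed level, so the size of change that each interval allows is given as well. The median log2 fold change (IPRN over DMSO) of the 89 members was -0.01, beside 0.00 over all genes tested. By group the medians were 0.02 in complex I, -0.02 in complex II, 0.05 in complex III, -0.03 in complex IV, -0.06 in complex V and -0.17 for the assembly factors. The point estimate lay within 1.2-fold of no change for 80 of 89 members (89.9%, against 60.1% of all genes tested). Members are abundant (median 72.6 CPM, against 14.2 CPM for all genes tested), so genes that average 5 CPM or more are the closer comparison, and 75.0% of those lay within that range. The whole 95% interval lay within 1.5-fold of no change for 73 members and within 2-fold for 84. Above that limit, 84.9% of members and 78.9% of all genes had their interval within 1.5-fold, with median standard errors of 0.097 and 0.092 on the log2 scale. Above the same 5 CPM, edgeR called 1.16% of members and 8.44% of all genes. An unadjusted p under 0.05 was held by 12.8% and 31.5%.

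**Figure D1:**
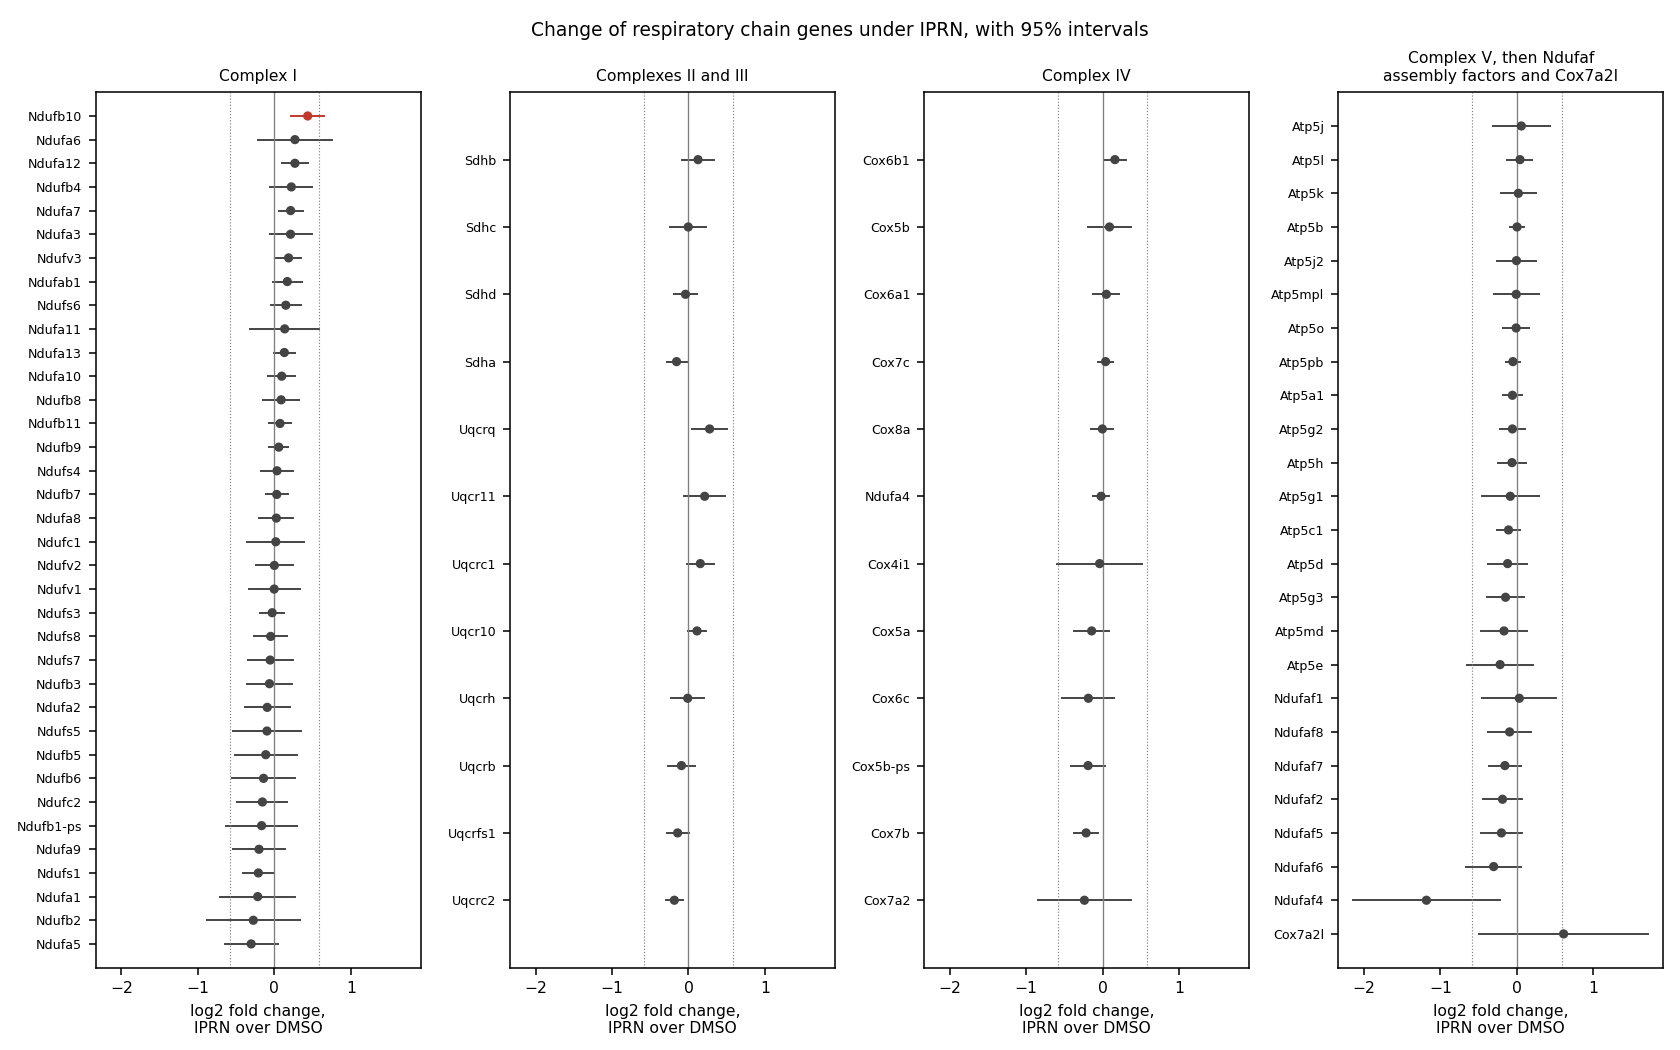
Log2 fold change of members that average 5 CPM or more (IPRN over DMSO, x axis), with its 95% interval, in panels by complex. Dotted lines mark 1.5-fold either way. Ndufb10, in red, is the 1 member that passed the test, and the intervals of Ndufaf4 and Cox7a2l are the widest.

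In 20 of the 89 members the 3 IPRN values did not overlap the 3 DMSO values, 11 of them higher and 9 lower in IPRN. That share, 22.5%, compares with 29.6% of all genes tested (14.9% higher and 14.7% lower). Among genes that average 5 CPM or more, it was 23.3% of members and 38.7% of all genes. In complex V, 13 of 17 tested genes had a negative point estimate, yet only Atp5pb, the b subunit of the peripheral stalk, had groups that did not overlap. Complex III had 5 such genes of 8, of which 3 (Uqcrq, Uqcr10 and Uqcrc1) were higher and 2 (Uqcrc2 and Uqcrfs1) lower in IPRN.

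Complex I, the NADH dehydrogenase, held the 1 call. Ndufb10 (ENSMUSG00000040048, chr17:24722060-24724478 on GRCm38, minus strand) encodes an accessory subunit of the membrane arm, and no exon of it overlaps another gene model. Its promoter window, 250 bases before to 50 after the annotated start (chr17:24724374-24724673, minus strand, RefSeq on GRCm38.p6), is shown because it is the gene that rose, with that of Sdha for contrast (chr13:74350191-74350490, minus strand), which held the most NRF1 matches of the promoters shown. Capitals mark the NRF1 motif (GCGC, any base, then TGCGC), searched on both strands.
Ndufb10: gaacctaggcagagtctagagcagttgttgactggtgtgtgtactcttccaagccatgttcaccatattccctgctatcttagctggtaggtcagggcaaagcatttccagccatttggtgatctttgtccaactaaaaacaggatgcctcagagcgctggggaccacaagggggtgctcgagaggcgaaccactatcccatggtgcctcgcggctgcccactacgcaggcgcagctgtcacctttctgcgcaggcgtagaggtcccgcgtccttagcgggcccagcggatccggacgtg
Sdha: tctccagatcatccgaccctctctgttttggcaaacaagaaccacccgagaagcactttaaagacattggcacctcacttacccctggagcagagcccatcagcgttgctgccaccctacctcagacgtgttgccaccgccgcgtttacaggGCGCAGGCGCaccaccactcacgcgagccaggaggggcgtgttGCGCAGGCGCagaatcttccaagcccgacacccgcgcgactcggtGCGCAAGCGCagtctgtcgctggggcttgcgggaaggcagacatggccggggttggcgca

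Ndufb10 had 91.3, 116 and 107 CPM in IPRN 1, 2 and 3, against 76.4, 80.5 and 74.9 CPM in DMSO 1, 2 and 3. Every IPRN library stood above every DMSO library, with IPRN 1 the nearest to them. The log2 fold change was 0.44 ± 0.090 (SE), a 1.35-fold rise with a 95% interval from 1.17 to 1.57, and the adjusted p in edgeR was 0.042. The call sat close to its threshold. It was lost in 5 of 6 fits that left out 1 library (adjusted p from 0.101 to 0.153 in edgeR) and was kept without IPRN 1 (log2 fold change 0.53, adjusted p = 0.0103). In the same test it was also lost with a term for liver transcripts (adjusted p = 0.0788), with the replicate number as a block (adjusted p = 0.102), without a filter on low counts (adjusted p = 0.0557) and without DMSO 1 and IPRN 3 together (adjusted p = 0.275). The promoter of Ndufb10 printed above holds no exact match to any of the 4 motifs searched, whereas that of Sdha holds 3 NRF1 matches. A window without a match was common, since 40 of 81 windows of members held any of the 4 and 20 held NRF1. Near matches were not counted, and the stretches acgcaggcgc and gcgcaggcgt in the Ndufb10 window differ from the NRF1 motif only at an end base.

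The other complex I genes nearest to the threshold were also higher in IPRN without passing. Ndufa12, an accessory subunit of the matrix arm, had 56.5, 53.3 and 51.2 CPM in IPRN libraries, against 41.2, 45.3 and 47.0 CPM in DMSO libraries. Its groups did not overlap, and its fold of 1.21 had a 95% interval from 1.07 to 1.36 (adjusted p = 0.0862 in edgeR). Ndufa7, another subunit of the matrix arm, averaged 61.0 ± 3.07 CPM in IPRN and 52.6 ± 2.65 CPM in DMSO (SD, n = 3 each), and its adjusted p in edgeR was 0.116. Ndufv3, which sits beside the NADH-binding flavoprotein, averaged 60.9 ± 4.23 CPM in IPRN and 53.5 ± 1.67 CPM in DMSO (SD, n = 3 each), with an adjusted p of 0.164 in edgeR. Ndufs1, the largest iron-sulphur subunit, pointed the other way, with 120.0, 141 and 149 CPM in IPRN, against 163, 162 and 150.4 CPM in DMSO. In total 21 complex I genes had positive and 16 negative estimates.

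Ndufv1, a core subunit, carries the site that binds NADH. It had 75.5, 111 and 108 CPM in IPRN, against 97.4, 96.0 and 102 CPM in DMSO. Here the IPRN values lay on both sides of DMSO, and the interval ran from 0.793 to 1.26-fold.

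**Figure D2:**
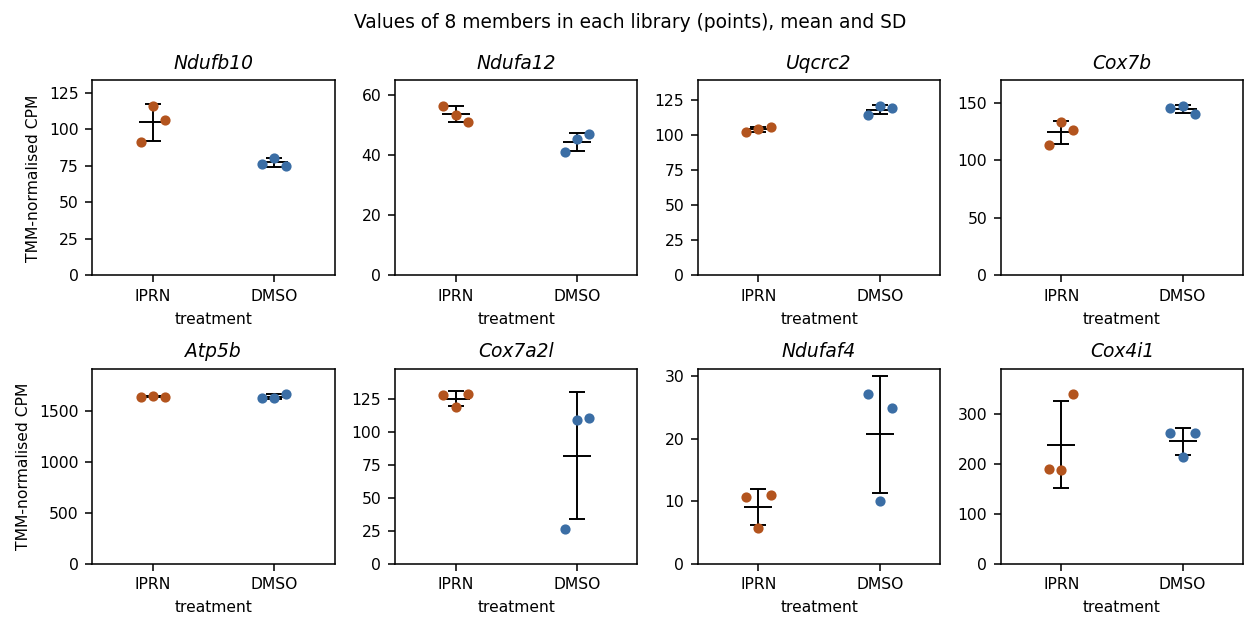
Normalised CPM (y axis, from 0) of 8 members in each library, IPRN left of DMSO, with bars for the mean and SD of 3 libraries. Ndufb10 and Ndufa12 stand higher in IPRN and Uqcrc2 and Cox7b lower without overlap, Atp5b is level, and in Cox7a2l and Cox4i1 a single library stands far from the others.

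Complex II, succinate dehydrogenase, links the chain to the TCA cycle. Sdha, its flavoprotein, had 134, 150.0 and 147 CPM in IPRN, against 163, 158 and 159 CPM in DMSO. All IPRN values lay below all DMSO values, and the fold of 0.897 had an interval from 0.820 to 0.983 (adjusted p = 0.157 in edgeR). Sdhb, the iron-sulphur subunit, had a fold of 1.09 (0.946 to 1.26), and the membrane anchors Sdhc and Sdhd had folds of 0.998 (0.849 to 1.17) and 0.973 (0.880 to 1.08). None of the 4 passed the edgeR test, 1 had an unadjusted p under 0.05 (Sdha) and DESeq2 called 0 of them.

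In complex III, which carries electrons from ubiquinol to cytochrome c, members pointed both ways. Uqcrc2, a core subunit, had 102, 104 and 106 CPM in IPRN, against 114, 121 and 119.6 CPM in DMSO. The groups were apart and tight, and the fold of 0.879 (0.815 to 0.950) had an adjusted p of 0.0709 in edgeR. Its exons overlap those of another gene model, so its counts are uncertain. Uqcrq, a small subunit beside cytochrome b, had 146, 116 and 116 CPM in IPRN, against 106, 100.4 and 106 CPM in DMSO. It was higher in every IPRN library, most in IPRN 1 (fold 1.21, interval 1.04 to 1.42, adjusted p = 0.149 in edgeR). Uqcrc1, the partner core subunit of Uqcrc2, averaged 129 ± 12.5 CPM in IPRN and 116 ± 3.03 CPM in DMSO, and Uqcrfs1, the Rieske iron-sulphur protein, 75.3 ± 4.69 CPM in IPRN and 83.1 ± 1.41 CPM in DMSO (SD, n = 3 each). Neither passed.

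Of the 20 complex IV genes, 14 had enough counts to test, and none passed (2 at an unadjusted p under 0.05, and 0 in DESeq2). Cox7b, a small subunit needed for assembly of the complex, had 114, 134 and 126 CPM in IPRN, against 146, 148 and 141 CPM in DMSO. It was lower in every IPRN library, with a fold of 0.860 (0.771 to 0.960) and an adjusted p of 0.115 in edgeR. Cox6b1, on the intermembrane side, had 178, 175 and 179 CPM in IPRN, against 167, 164 and 145 CPM in DMSO. It was higher in every IPRN library (fold 1.12, interval 1.01 to 1.24, adjusted p = 0.183 in edgeR). Cox7c, with 152, 147 and 149 CPM in IPRN, against 149, 145 and 142 CPM in DMSO, and Ndufa4, with 172, 175 and 174 CPM in IPRN, against 181, 176 and 171 CPM in DMSO, had among the tightest intervals, 0.956 to 1.10-fold and 0.919 to 1.06-fold.

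Cox4i1, which encodes the main regulatory subunit, was uneven. It had 189.5, 187 and 339.5 CPM in IPRN, against 261, 214 and 261 CPM in DMSO, so that IPRN 3 stood far above every other library. Its interval, 0.661 to 1.43-fold, was correspondingly wide, and its exons overlap another gene model. Cox5b and Cox5b-ps, a copy on another chromosome that the annotation calls protein coding, have near-identical names and possibly shared reads, so the split between them is uncertain. Cox5b averaged 162 ± 22.2 CPM in IPRN and 152 ± 16.9 CPM in DMSO, and Cox5b-ps 27.7 ± 3.14 CPM in IPRN and 31.6 ± 0.263 CPM in DMSO (SD, n = 3 each).

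Within complex IV the forms used by most tissues were abundant, and the restricted forms were near 0 in both treatments. Per kilobase of the main coding transcript, averaged over the 6 libraries, Cox8a stood at 528 CPM and its muscle form Cox8b at 0.879 CPM. The main coding transcript was the longest that the annotation tags as principal, or else the longest coding one. The same scale gave 406 CPM for Cox6a1 and 0.521 CPM for the muscle form Cox6a2, and 99.4 CPM for Cox7a2 and 0.307 CPM for the muscle form Cox7a1. It gave 316 CPM for Cox4i1 and 0.047 CPM for Cox4i2, the form of lung and low oxygen, and 287 CPM for Ndufa4 and 0.113 CPM for the hypoxia-induced Ndufa4l2. The testis forms Cox6b2 and Cox7b2 stood at 0.0196 and 0.0977 CPM per kilobase, and Cox8c had no count in any library, which allows at most 0.0382 to 0.0499 CPM per library. Cox8b had 0.421, 0.443 and 0 CPM in IPRN, against 0.250, 0.453 and 0.331 CPM in DMSO, and too few counts to resolve a change (interval from 0.132 to 5.33-fold). Cox6a2, with 0.729, 0.201 and 0.217 CPM in IPRN, against 0.300, 0.192 and 0.484 CPM in DMSO, was as poorly resolved. The promoters of Cox8a (chr19:7217567-7217866, minus strand) and Cox8b (chr7:140900397-140900696, minus strand), both from RefSeq on GRCm38.p6, are shown because they belong to a pair of isoforms at opposite ends of the levels. Capitals mark the ETS letters CCGGAAG as read on either strand.
Cox8a: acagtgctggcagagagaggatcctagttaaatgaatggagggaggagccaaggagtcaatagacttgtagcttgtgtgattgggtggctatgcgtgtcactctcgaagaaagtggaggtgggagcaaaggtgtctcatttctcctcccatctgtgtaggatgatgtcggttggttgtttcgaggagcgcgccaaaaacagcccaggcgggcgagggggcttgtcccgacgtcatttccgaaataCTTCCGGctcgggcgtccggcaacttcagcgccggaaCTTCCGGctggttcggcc
Cox8b: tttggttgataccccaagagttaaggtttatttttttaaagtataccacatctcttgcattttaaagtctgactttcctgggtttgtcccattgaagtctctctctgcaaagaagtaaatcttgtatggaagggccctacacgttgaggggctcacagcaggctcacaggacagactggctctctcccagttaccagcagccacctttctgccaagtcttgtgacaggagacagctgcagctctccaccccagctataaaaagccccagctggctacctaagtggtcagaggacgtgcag

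The Cox8a window holds 2 ETS matches close to the start, and its ratio of observed to expected CpG was 0.842. The Cox8b window holds no exact match to any of the 4 motifs, and its ratio was 0.115. The pair was picked by its levels. The window of Atp5b, the highest member per kilobase, also held none of the 4 motifs, whereas that of Cox6a1 held NRF1 and ETS matches. Whether matches go with level was not tested. A match describes the letters only and is no evidence of a bound factor.

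**Figure D3:**
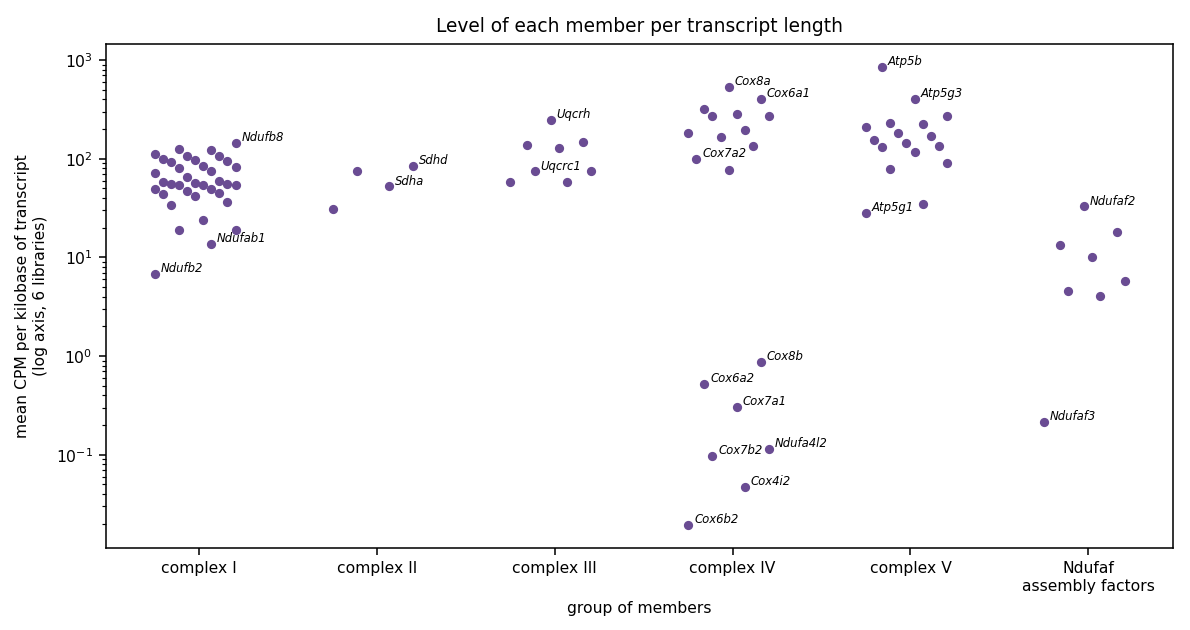
Mean level of each member over the 6 libraries as CPM per kilobase of its main coding transcript (log axis), by complex. Genes at 0 and Cox7a2l are not drawn. Atp5b and Cox8a are the highest, and the muscle, testis and low-oxygen forms of complex IV subunits lie below 1 CPM per kilobase.

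Complex V held the member with the highest CPM. Atp5b, the catalytic β subunit, had 1639, 1647 and 1633 CPM in IPRN, against 1625, 1623 and 1663 CPM in DMSO. The groups overlapped, and the interval, 0.943 to 1.06-fold, was the narrowest of the members. Atp5a1, the α subunit, averaged 657 ± 10.5 CPM in IPRN and 684 ± 39.9 CPM in DMSO, and Atp5c1, the γ subunit of the central stalk, 254 ± 18.6 CPM in IPRN and 274 ± 6.35 CPM in DMSO (SD, n = 3 each). Their folds were 0.961 (0.880 to 1.05) and 0.927 (0.837 to 1.03). Atp5pb had 271, 269 and 264 CPM in IPRN, against 277, 279 and 278 CPM in DMSO, a small and even difference (fold 0.965, interval 0.905 to 1.03). Exons of Atp5pb and Atp5a1 overlap other gene models, so their counts are uncertain.

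Atp5g1, Atp5g2 and Atp5g3 encode the same mature c subunit of the rotor ring. Per kilobase of transcript, Atp5g3 stood at 405 CPM, Atp5g2 at 228 CPM and Atp5g1 at 27.9 CPM. The transcript taken was 4715 bases long for Atp5g1, against 731 for Atp5g2 and 723 for Atp5g3. Before division by length, Atp5g3 averaged 293 CPM, Atp5g2 167 CPM and Atp5g1 132 CPM. The low value of Atp5g1 per kilobase therefore depends largely on the length used. Atp5g3 had 233, 294 and 306 CPM in IPRN, against 308, 300.3 and 315 CPM in DMSO, and IPRN 1 was the low library. Atp5g1 had 94.8, 139 and 149.7 CPM in IPRN, against 129, 139.7 and 138 CPM in DMSO, again with IPRN 1 lowest. Atp5g2 averaged 163 ± 13.2 CPM in IPRN and 169.9 ± 7.93 CPM in DMSO (SD, n = 3 each). None of the 17 tested complex V genes passed the edgeR test, 0 had an unadjusted p under 0.05 and DESeq2 called 0 of them.

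The 8 assembly factors, which build complex I but are not part of it, were much less abundant than the subunits. Their median level was 7.93 CPM per kilobase of transcript, beside 56.5 for complex I subunits. Summed, they reached 83.2, 92.2 and 92.3 CPM in IPRN, against 115, 100.04 and 115 CPM in DMSO, and every IPRN sum was below every DMSO sum. The sums averaged 89.2 CPM in IPRN and 110 CPM in DMSO. Much of that gap came from Ndufaf4 alone, which averaged 9.13 CPM in IPRN and 20.7 CPM in DMSO. Ndufaf4, which works early in assembly, differed most between the groups. It had 10.6, 5.81 and 10.96 CPM in IPRN, against 27.2, 10.02 and 25.02 CPM in DMSO. DMSO 2 fell among the IPRN values, so the groups overlapped. The fold of 0.440 had an interval from 0.226 to 0.857, the adjusted p was 0.146 in edgeR and 0.0125 in DESeq2, and the DMSO values differed 2.71-fold among themselves. Ndufaf3 stood at 0.323 ± 0.101 CPM in IPRN and 0.318 ± 0.064 CPM in DMSO (SD, n = 3 each), with exons that overlap another gene.

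Among members that average 5 CPM or more, Cox7a2l had the highest ratio between replicates, 4.17-fold within DMSO. It had 129, 119 and 129 CPM in IPRN, against 26.5, 109 and 111 CPM in DMSO. The groups did not overlap, but DMSO 1 alone was low and DMSO 2 and DMSO 3 lay near the IPRN values. The fold of 1.53 had an interval from 0.708 to 3.30 (adjusted p = 0.525 in edgeR), and without DMSO 1 the log2 fold change was 0.19 instead of 0.61. DMSO 1 also had the smallest total count and no count of Alb, the albumin gene, while IPRN 3, with 0.186 CPM of Alb, stood among the highest libraries for Cox7a2l. The part of these features in the Cox7a2l value was not tested.

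Levels between members were compared on scales that correct for length. In the deposited FPKM, the highest members averaged over the 6 libraries were Cox8a (422), Atp5b (348), Cox6a1 (297), Cox6b1 (213) and Atp5a1 (192). The highest in complex I were Ndufb11 (89.5 FPKM), Ndufc2 (86.6 FPKM) and Ndufa2 (85.0 FPKM), all accessory subunits. In complex II Sdhd reached 76.5 FPKM, Sdhb 34.1 FPKM and Sdha 33.1 FPKM, and in complex III Uqcr10 reached 99.8 FPKM, Uqcrh 97.8 FPKM and Uqcr11 86.8 FPKM. Atp5c1 followed in complex V with 124 FPKM. The length behind these FPKM values tracked the union of all annotated exons, which for members with long non-coding models far exceeds the coding transcript (11.8 times for Atp5l, 7.26 times for Ndufb7). Per kilobase of the main coding transcript, Atp5b was highest at 855 CPM and Cox8a next at 528 CPM. The order of members therefore depends on the length used. Median levels per kilobase over the tested genes were 56.5 CPM in complex I, 63.4 in II, 102 in III, 188 in IV and 154 in V. With the genes too low to test included, the medians were 117 in IV and 148 in V, so the order of these complexes turns.

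Replicates varied more among IPRN than among DMSO libraries, and most of that variation lay in IPRN 1. Of 86 members that average 5 CPM or more, 16 differed at least 1.5-fold between the highest and lowest IPRN library, against 3 among DMSO libraries, and the median ratio was 1.25 in IPRN and 1.08 in DMSO. Set against the mean of the other IPRN libraries, IPRN 1 was lower for 59 of 89 members (66.3%, against 47.2% of all genes tested), with a median difference of -0.16 on the log2 scale of CPM plus 0.1 (0.02 over all genes tested). DMSO 2, set against the other DMSO libraries, was lower for nearly as many, 56 of 89 (62.9%, against 48.8%). Its median difference was smaller, at -0.03. In IPRN 1, 14 members lay more than 0.5 below. They were 15.7% of the 89 members, against 10.9% of all genes tested, and 16.3% of the 86 members that average 5 CPM or more, against 4.18% of all such genes. Of these 14, 10 were among the 37 complex I genes. Those furthest below, named here because of their values, were Ndufb2, Cox7a2 and Ndufa1. Ndufb2, a membrane arm subunit, had 15.8, 32.5 and 32.0 CPM in IPRN, against 32.0, 33.6 and 31.6 CPM in DMSO, so IPRN 2 and IPRN 3 lay within the DMSO range. Exons of Ndufb2 overlap other gene models, so its counts are uncertain. Cox7a2 had 37.1, 79.6 and 63.5 CPM in IPRN, against 60.8, 76.5 and 75.4 CPM in DMSO. Ndufa1, a small subunit of complex I, had 24.0, 42.9 and 40.6 CPM in IPRN, against 41.6, 39.8 and 43.5 CPM in DMSO. In complex III, 4 of 8 genes were lower in IPRN 1 (median difference 0.02).

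In the same library the mitochondrially encoded subunits stood higher. All 13 exceeded the other IPRN libraries in IPRN 1, by a median of 0.40 on the log2 scale. Summed, they held 66172, 48555 and 49521 CPM in IPRN, against 51405, 52180 and 51056 CPM in DMSO, so IPRN 1 alone lay above the DMSO range. Across 86 members the shift in IPRN 1 showed little relation to transcript length (Spearman rho 0.07) or GC content (0.08). These correlations run across genes of 1 library, which are not independent. The cause of the shift was not tested, and in bulk RNA fewer cells of a kind cannot be told apart from less RNA per cell. Without IPRN 1 the edgeR test still called only Ndufb10 among the members, where it called 5.86% of all genes.

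**Figure D4:**
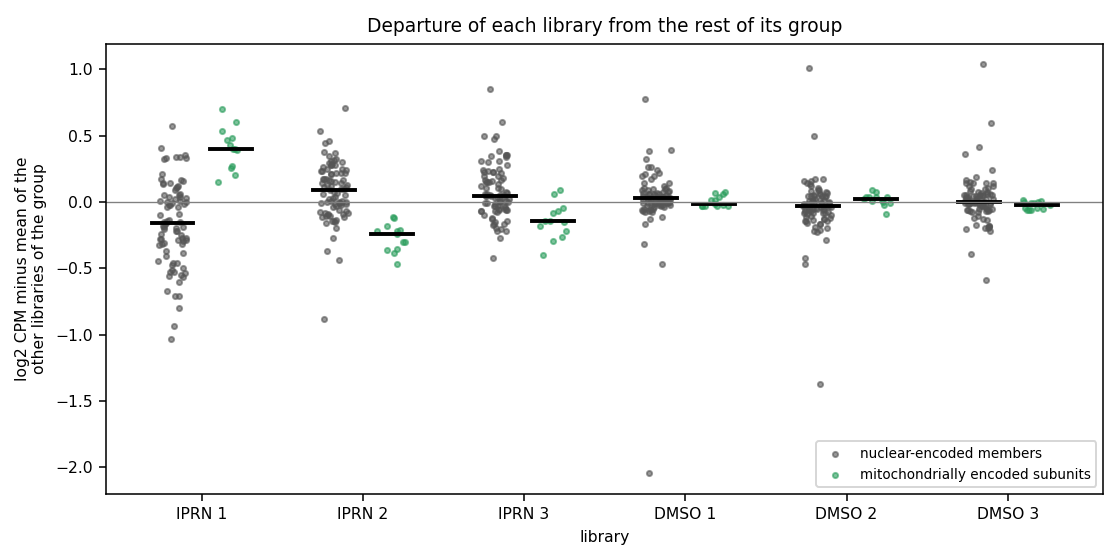
Log2 CPM of each gene in a library minus the mean of the other libraries of its group (y axis), for members (grey) and mitochondrially encoded subunits (green) that average 5 CPM or more, with medians as black bars. IPRN 1 stands out by lower members and higher mitochondrially encoded subunits. The lowest point in DMSO 1 is Cox7a2l.

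Genes that work with the respiratory chain were read from the same fit. None of the 13 mitochondrially encoded subunits passed (median log2 fold change 0.07, 0 at an unadjusted p under 0.05, 0 in DESeq2). Without IPRN 1, however, edgeR called 3 of them lower in IPRN (mt-Nd1, mt-Nd2 and mt-Nd6), where it called 5.86% of all genes. Exons of 10 of the 13, these 3 included, overlap another gene model, so their counts are uncertain. The Ndufaf assembly factors, described above as members, were left out of the next list. None of its 41 tested assembly factors, drawn from all complexes, passed (median 0.06, 4 at an unadjusted p under 0.05, 1 in DESeq2). Nor did any of 19 genes for electron carriers and the enzymes that feed ubiquinone or make it (median 0.04, 3 at an unadjusted p under 0.05, 2 in DESeq2). Their shares at an unadjusted p under 0.05 were 9.76% and 15.8%, against 22.0% of all genes tested. The 19 include Cyc1, which encodes cytochrome c1, a complex III subunit that the symbol rule left out of the members.

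Among 18 genes of the TCA cycle, which supplies the NADH and succinate, 2 rose, 1 fell and 15 did not pass (median log2 fold change -0.03). The share called was 16.7%, against 5.47% of all genes tested. At an unadjusted p under 0.05 there were 10 (55.6%, against 22.0% of all genes), 3 higher and 7 lower in IPRN. Of all genes that average 5 CPM or more, the closer comparison, edgeR called 8.44%, and 31.5% had an unadjusted p under 0.05. DESeq2 called 2 higher (Cs and Ogdh) and 4 lower (Dld, Fh1, Idh3a and Sucla2). Cs, citrate synthase, had 499, 472 and 454 CPM in IPRN, against 403, 402 and 409 CPM in DMSO, a 1.17-fold rise (adjusted p = 0.0448 in edgeR). Ogdh, the first component of the 2-oxoglutarate dehydrogenase complex, rose to 139, 130.02 and 126 CPM in IPRN, against 98.4, 112 and 108 CPM in DMSO (adjusted p = 0.0486 in edgeR). Idh3a, the catalytic subunit of NAD-dependent isocitrate dehydrogenase, fell to 88.9, 96.2 and 97.7 CPM in IPRN, against 113, 119 and 109.0 CPM in DMSO (adjusted p = 0.0482 in edgeR). In all 3 genes the groups were apart. Cs kept its call in 1 of 6 fits that left out 1 library, that without IPRN 1 (adjusted p from 0.0299 to 0.166 in edgeR), and Ogdh and Idh3a in none (0.0753 to 0.154 and 0.0592 to 0.182).

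Of 18 regulators of mitochondrial gene expression and biogenesis, 1 rose and 17 did not pass (median log2 fold change 0.01, 7 at an unadjusted p under 0.05, DESeq2 1 higher and 0 lower). The share called was 5.56%, against 5.47% of all genes tested. At an unadjusted p under 0.05 the share was 38.9%, against 22.0%. For all genes that average 5 CPM or more, these 2 shares were 8.44% and 31.5%. The gene that rose was Polrmt, the mitochondrial RNA polymerase, with 44.3, 45.8 and 46.7 CPM in IPRN, against 32.9, 31.0 and 37.6 CPM in DMSO (log2 fold change 0.43, adjusted p = 0.0383 in edgeR). Of 78 mitochondrial ribosomal protein genes, 2 rose, none fell and 76 did not pass (median 0.02, 12 at an unadjusted p under 0.05, DESeq2 6 higher and 0 lower). The share that rose was 2.56%, against 2.46% of all genes tested. At an unadjusted p under 0.05 the share was 15.4%, against 22.0%. Mrpl28 averaged 65.8 ± 2.99 CPM in IPRN and 51.2 ± 3.72 CPM in DMSO, with an adjusted p of 0.0384 in edgeR. Mrpl49, whose exons overlap another gene, averaged 81.5 ± 4.99 CPM in IPRN and 64.6 ± 4.38 CPM in DMSO, with an adjusted p of 0.0479 in edgeR (SD, n = 3 each). Polrmt, Mrpl28 and Mrpl49 each lost the call in all 6 fits that left out 1 library.

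Promoter windows of 300 bases were found in the RefSeq table for 76 of the 95 member symbols (81 windows, since 5 genes had 2 starts). The NRF1 motif, spelled out above, stood in 20 of these windows (24.7%), against 9.48% of the windows of tested protein-coding genes. The ETS letters CCGGAAG stood in 19 (23.5%, against 16.5%), the YY1 letters AAGATGGCG in 8 (9.88%, against 2.82%) and the oestrogen-related receptor letters TNAAGGTCA in 3 (3.70%, against 0.687%). At least 1 of the 4 was in 40 windows (49.4%, against 26.4%). Over all windows of the table the shares were 4.60% for NRF1, 8.86% for ETS, 1.40% for YY1 and 1.28% for the receptor letters. Motifs were searched as exact matches on both strands, and these shares are descriptions without a test.

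The fibroblast label was checked against 8 markers, all detected, which summed to 22235 to 24963 CPM in IPRN and 20372 to 21373 CPM in DMSO. Of them Fn1 passed the test, higher in IPRN. The 22 liver markers summed to 20.5 to 141 CPM in IPRN and 42.9 to 108 CPM in DMSO, and 1 of them, Hp, fell. At the low ends of these ranges Hp made up most of the sum, with 15.0 CPM in IPRN 3 and 39.4 CPM in DMSO 1. Alb was at or near 0 in IPRN 3 (0.186 CPM) and DMSO 1 (0 CPM) and reached 42.8 CPM in IPRN 1, and the part of these transcripts in the members' values was not tested beyond the fits named above. Markers of striated muscle summed to 21.9 to 28.5 CPM in IPRN and 27.3 to 31.3 CPM in DMSO, mostly Tnnt2, with Myh2 and Actc1 at 0 in every library. Blood markers reached at most 6.61 CPM in IPRN and 5.21 CPM in DMSO, and epithelial markers 1.797 CPM in IPRN and 0.548 CPM in DMSO.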

How the data were processed

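Polyadenylated RNA of 3 IPRN and 3 DMSO libraries was captured on oligo(dT) beads and copied with random primers, per the labels' protocols. No step there marks the strand, so reads of overlapping antisense genes cannot be separated, and 33 of the 89 tested members share exon sequence with another gene. Besides the members marked where they are described, these include Ndufs1, Ndufb11, Ndufa2, Cox6a2, Atp5g2 and Atp5l. Per the file headers, the authors deposited a whole-number count and an FPKM value per gene. Cutadapt 1.9 is named in the submitters' processing notes, whereas the aligner, the counter and the annotation were not given in the sources used here. Positions were identical to GENCODE M21 on GRCm38 for 94.2% of 55141 IDs found in both, and coordinates are given on that build. The FPKM length matched a constant multiple of the union of exons within 2% for 98.7% of genes with over 200 counts.

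The test was edgeR 4.0.16 in R 4.3.3 (TMM, the default expression filter with a minimum count of 10, the quasi-likelihood test, Benjamini-Hochberg over 17159 genes, threshold 0.05). Of the 96 members 89 passed this filter. Cox4i2, Cox6b2, Cox7a1, Cox7b2, Cox8c, Ndufa4l2 and a second gene model of Atp5o did not, and Cox8c and that Atp5o model were at 0 in every library. Standard errors and 95% intervals come from the fold change and the F statistic, and CPM values are TMM-normalised. Replicates differed beyond sampling noise (chi-square divided by its degrees of freedom, 33.7 to 93.3, highest for pairs with IPRN 1), so each library counted once. The test was checked on simulated counts. Alternatives were DESeq2 1.42.0, other scalings and filters, each library left out, a replicate block, a term for liver transcripts and protein-coding genes without exon overlap. A floor of 3 counts is 0.0382 to 0.0499 CPM and covers counting error only. Same-numbered libraries did not deviate together (correlations -0.18, 0.09 and -0.13), so numbers were not used to pair them. Named genes were the members called or with the 10 smallest adjusted p, the 3 highest FPKM per complex, isoform sets and called genes of related lists. Atp5pb, Ndufs1, Ndufv1, Uqcrc1, Uqcrfs1, Cox7c, Cox5b, Cox5b-ps, Ndufaf3, Ndufb2 and Ndufa1 were added after their values were seen. A single member is included in the counts but is not reported here by itself. The members, lists and motifs were chosen with earlier results of these data known.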

Additional observations from a re-analysis of the deposited data

How the results depend on the processing

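The count of genes called was 938 in the edgeR test as reported, 941 with RLE scaling, 939 with total count scaling and 1161 at a mean of at least 50 counts. Among protein-coding genes without exon overlap, a smaller set of genes, the count was 939. It was 2143 in DESeq2, 621 without a filter, 429 with a term for liver transcripts, 103 with the replicate number as a block (replicate block) and 53 without DMSO 1 and IPRN 3 together, and leaving out 1 library gave 133 (without DMSO 1) to 262 (without IPRN 3), but 1047 without IPRN 1. Members called numbered 1, a rise, and 4 in DESeq2 (2 higher, 2 lower). There were 0 without a filter, with the liver term, with the replicate block and without DMSO 1 and IPRN 3, and 0 to 1 with 1 library left out. The median log2 fold change of complex III was 0.05 and became 0.13 without genes that overlap another and 0.10 without DMSO 1 and IPRN 3, and leaving out 1 library gave 0.014 to 0.10. That of the Ndufaf assembly factors was -0.17 and ran from -0.23 to -0.087 with 1 library left out, the last without IPRN 1. The median of all members changed sign without IPRN 1 (0.01, against -0.01). The cause of these shifts was not tested. The other medians by complex moved by less than the spread between libraries. For the 38 named genes with a test, 490 values under an alternative kept their side of the threshold, 67 lost it, 3 gained it and none of the called genes changed sign. With 3 libraries a group, the 95% interval lay within 1.2-fold of no change for only 27 of 89 members.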

Other observations

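Of the 18 regulators of mitochondrial gene expression and biogenesis, 8 had groups that did not overlap, 3 higher and 5 lower in IPRN. That share, 44.4%, compares with 29.6% of all genes tested and 38.7% of those that average 5 CPM or more. Of these 8 regulators only Polrmt passed the test, and those described here were picked after their values were seen. Polg, the mitochondrial DNA polymerase, had 66.0, 74.4 and 75.3 CPM in IPRN, against 59.3, 63.7 and 62.02 CPM in DMSO (log2 fold change 0.22, adjusted p = 0.116 in edgeR). Twnk, the mitochondrial DNA helicase, averaged 39.0 ± 1.89 CPM in IPRN and 34.7 ± 0.851 CPM in DMSO (SD, n = 3 each), with an adjusted p of 0.200 in edgeR. The exons of both overlap another gene. Ppargc1a, the coactivator PGC-1α, had 0.631, 0.469 and 0.590 CPM in IPRN, against 0.949, 1.13 and 1.13 CPM in DMSO (log2 fold change -0.92, adjusted p = 0.133 in edgeR). Tfam, which packages and transcribes mitochondrial DNA, had 45.5, 51.6 and 53.4 CPM in IPRN, against 58.8, 60.6 and 57.9 CPM in DMSO (log2 fold change -0.24, adjusted p = 0.117 in edgeR). Gabpa, the DNA-binding part of GABP, had 63.6, 58.0 and 61.5 CPM in IPRN, against 70.7, 75.4 and 66.0 CPM in DMSO (log2 fold change -0.21, adjusted p = 0.130 in edgeR). Exons of Gabpa overlap those of the member Atp5j, so its counts are uncertain. Nrf1 overlapped between the groups, with 26.2, 25.6 and 29.1 CPM in IPRN, against 31.6, 26.9 and 26.3 CPM in DMSO. Summed over the 78 mitochondrial ribosomal protein genes, IPRN libraries held 3465, 3363 and 3378 CPM, against 3285, 3258 and 3289 CPM in DMSO, and the groups did not overlap. Gene by gene, however, only 19 of the 78 had groups apart (24.4%, against 29.6% of all genes tested). Of these 11 were higher and 8 lower in IPRN, and the median log2 fold change of the 78 was 0.02.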
